A study of Sus scrofa and Rattus norvegicus with 8 samples.

Results

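The genes of the transforming growth factor beta (TGF-beta), bone morphogenetic protein (BMP) and activin pathway were examined in subcutaneous fat of the pig. Members were chosen by symbol alone: the TGF-beta, BMP, growth and differentiation factor (GDF), myostatin, activin and inhibin ligands, their receptors, the SMAD proteins, the latent TGF-beta binding proteins and a set of secreted antagonists. Of 25880 gene IDs in the pig table, 14857 had a symbol, and 57 of these were members. The listed names BMP8A, BMP8B, GDF1 and FSTL2 matched no ID and were not analysed here.

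Backfat, in its upper layer, was sampled from 6 female Bama pigs, 1 library each, adults of 2 years with no treatment or genetic change named. They formed 1 group, so no comparison between conditions was possible. The series also holds 2 libraries of inguinal fat, each from a pool of female SD rats 32 weeks old, whose IDs could not be paired with gene names and which were not used for these genes. Whole fat tissue was sampled, so fewer cells of a type and less RNA per cell cannot be told apart.

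In this pathway a ligand dimer brings together type I and type II receptor kinases at the cell surface, and the type I receptor then phosphorylates receptor-regulated SMADs. TGF-beta and activin ligands act mainly through SMAD2 and SMAD3, and BMP ligands mainly through SMAD1, SMAD5 and SMAD9, and both arms share SMAD4. In fat, TGF-beta and activin signals are known for holding back adipocyte differentiation and for matrix production, while several BMP ligands are known for commitment of progenitors to the adipocyte lineage.

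Expression was deposited as TPM, an abundance of transcripts per unit of length on the same total in every library, so that levels of different genes can be set side by side. Named nuclear genes held 24.1% to 26.3% of the TPM in replicates 1, 2, 3 and 6, but 3.34% in replicate 4 and 4.73% in replicate 5. These 2 libraries stood apart from the rest, and the part of this share in the results was not tested. Values were therefore also rescaled, so that the 14844 named nuclear genes of each library summed to 1000000 (rescaled TPM). Some results were given with and without replicates 4 and 5, while most differences between paired genes were given over all 6 libraries only. A range below runs from the lowest to the highest of the 6 libraries, and an SD is over the same 6. The adipocyte markers of the tissue were present (9 of 9 over 0.1 TPM in every library), with a summed level between 20205 and 36821 rescaled TPM, and 27579 and 36821 in replicates 4 and 5. Single markers did not all follow the sum. In both of these replicates 4 of the 9 lay below the other libraries and 1 above, as did 50.1% and 10.4% of all named nuclear genes.

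The sequence just before the gene start is shown for 5 members whose levels or letters are taken up below: the TGF-beta ligands TGFB1, TGFB2 and TGFB3, the inhibitory SMAD7, and myostatin (MSTN). Each is the 250 bases before the RefSeq gene start on Sscrofa11.1, read 5′ to 3′ on the strand of the gene, at chr6:49348643-49348892 (minus) for TGFB1, chr10:8305886-8306135 (plus) for TGFB2, chr7:99162240-99162489 (minus) for TGFB3, chr1:98543925-98544174 (minus) for SMAD7 and chr15:94628441-94628690 (minus) for MSTN. Capitals mark the SMAD palindrome GTCTAGAC in SMAD7 and the TATA-box letters TATAAA in MSTN.
TGFB1: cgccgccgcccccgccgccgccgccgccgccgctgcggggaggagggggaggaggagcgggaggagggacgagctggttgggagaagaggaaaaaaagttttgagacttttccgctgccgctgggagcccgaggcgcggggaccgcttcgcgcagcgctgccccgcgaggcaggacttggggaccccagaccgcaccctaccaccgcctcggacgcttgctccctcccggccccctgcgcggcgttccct
TGFB2: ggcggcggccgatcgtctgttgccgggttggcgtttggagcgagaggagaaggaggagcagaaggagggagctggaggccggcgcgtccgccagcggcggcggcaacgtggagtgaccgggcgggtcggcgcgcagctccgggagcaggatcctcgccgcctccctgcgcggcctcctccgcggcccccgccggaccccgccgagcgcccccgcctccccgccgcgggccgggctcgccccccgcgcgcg
TGFB3: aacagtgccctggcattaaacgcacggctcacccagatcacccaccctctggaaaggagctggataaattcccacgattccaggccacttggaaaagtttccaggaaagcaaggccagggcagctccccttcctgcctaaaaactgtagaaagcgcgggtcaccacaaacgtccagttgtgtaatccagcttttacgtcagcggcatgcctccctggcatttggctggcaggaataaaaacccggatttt
SMAD7: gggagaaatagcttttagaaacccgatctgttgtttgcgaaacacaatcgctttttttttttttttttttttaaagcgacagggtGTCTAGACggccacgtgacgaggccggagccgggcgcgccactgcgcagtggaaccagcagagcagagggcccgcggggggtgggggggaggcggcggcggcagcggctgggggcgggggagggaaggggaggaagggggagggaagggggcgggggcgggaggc
MSTN: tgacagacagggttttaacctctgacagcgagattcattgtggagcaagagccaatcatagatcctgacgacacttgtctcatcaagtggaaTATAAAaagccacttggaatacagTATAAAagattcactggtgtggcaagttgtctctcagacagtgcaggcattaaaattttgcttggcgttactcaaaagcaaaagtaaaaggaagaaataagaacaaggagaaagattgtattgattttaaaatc

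The motifs were searched on both strands as letters, and a match is a description of the sequence. GTCTAGAC, the palindrome that SMAD3 and SMAD4 are known to bind, stood in 32 of 19556 promoters of this length (0.164%) and in 1 of 57 members, SMAD7, whose product inhibits the receptors. Its first letters, GTCT, are the shorter SMAD-binding element and overlap it, and they stood in 77.7% of all promoters and 43 of 57 members. TATAAA stood in 9.77% of all promoters and in 5 members, FSTL3, GDF11, GDF15, GDF2 and MSTN. GGCGCC, a GC-rich element described for BMP-responsive SMADs, stood in 16.1% of all promoters and 9 members. Member promoters were richer in G and C than promoters at large, with a median of 68.8% against 57.6%. The TGFB2 promoter held 80.0% G and C and that of TGFB1 74.0%, while TGFB3 held 52.8% and MSTN 38.0%.

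At over 0.1 TPM, 35 of 57 members were detected in all 6 libraries (61.4%), 13 in some of them and 9 in none (15.8%). Among all named nuclear genes, 67.2% were detected in all 6 libraries and 10.1% in none, so the members were not more widely detected than genes at large. Without replicates 4 and 5, 46 of 57 members were over 0.1 TPM in each of the other 4 libraries, beside 83.1% of all named nuclear genes. The 9 members detected in no library were ligands or ligand subunits: BMP15, GDF2, GDF3, GDF6, GDF7, INHA, INHBC, INHBE and MSTN. GDF3 was listed at 0 in every library. The other 48 members were detected in at least 1 library and are taken up by role below, and 43 of the 57 had a mean of at least 1 rescaled TPM, 28 of at least 10 and 9 of at least 100.

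**Figure D1:**
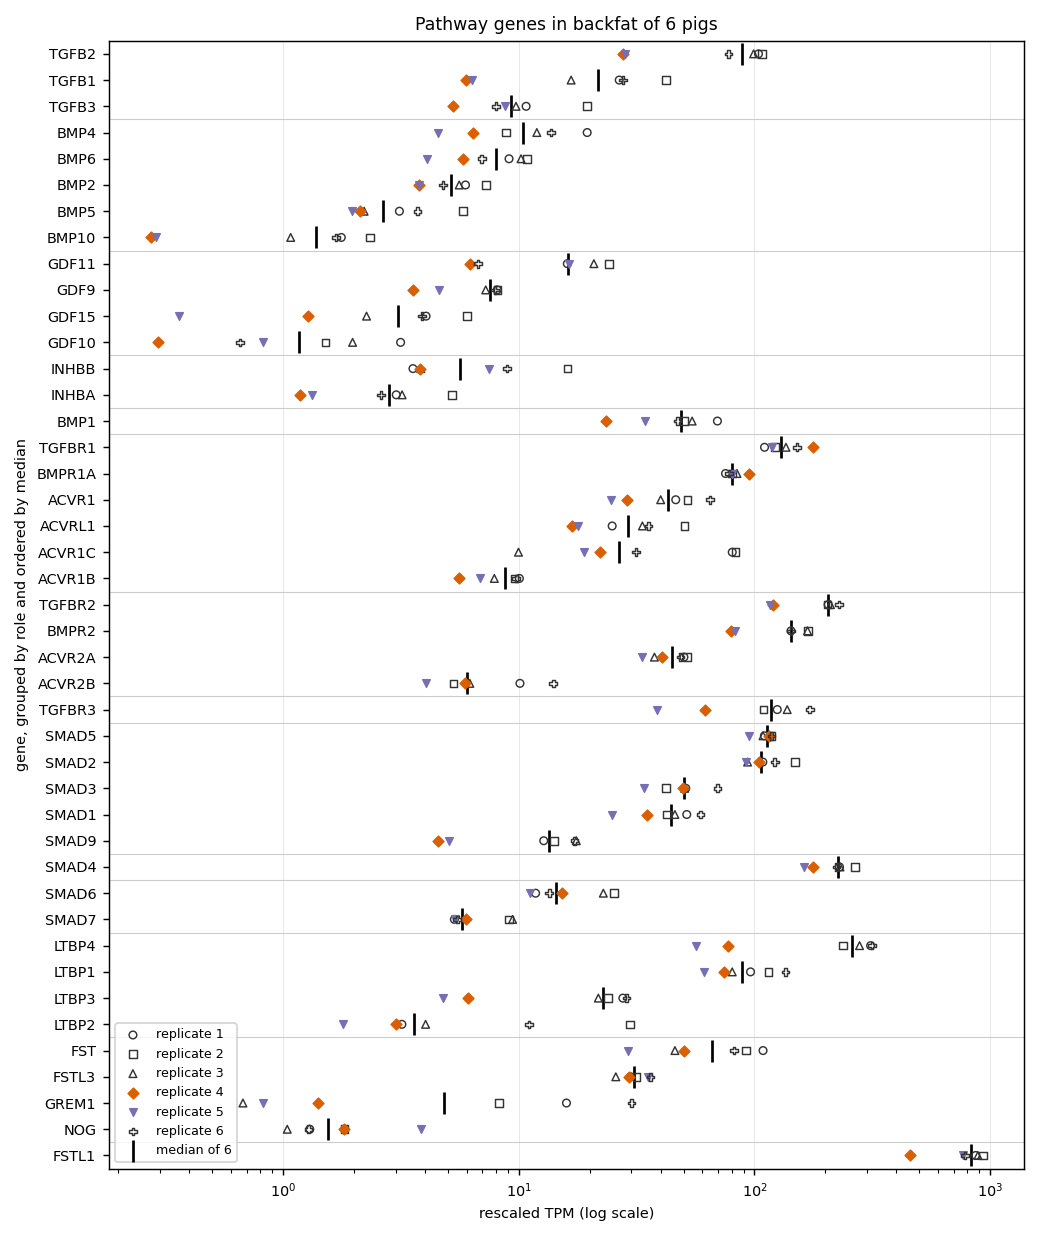
Rescaled TPM (log scale) of the 43 members with a mean of at least 1 rescaled TPM in each of the 6 pig libraries, grouped by role, with black bars for the median. FSTL1 lies highest at 458 to 931, and receptors and SMADs lie mostly above ligands. Filled symbols mark replicates 4 and 5, which lie lowest for 25 of the 43 members, among them TGFB1, TGFB2, LTBP3, LTBP4 and SMAD9, and for 50.1% of all named nuclear genes.

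TGFB2 was the most abundant TGF-beta ligand in every library. The gene lies at chr10:8306136-8435307 on the plus strand of Sscrofa11.1 and its longest RefSeq transcript has 8 exons. Its level was 27.8, 88.4 and 108 rescaled TPM (lowest, median and highest), and 0.928, 23.2 and 26.0 TPM as deposited. It held 70.2% ± 5.66 (SD, n = 6) of the summed TPM of the TGF-beta ligands, with a range of 63.5% to 79.0%. Without replicates 4 and 5 the mean share was 71.1%.

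TGFB1, the most widely studied of the ligands and a product of many immune and stromal cells, followed at 5.99, 21.7 and 42.3 rescaled TPM and 0.2001, 5.51 and 10.2 TPM. TGFB3 stood at 5.26, 9.24 and 19.5 rescaled TPM and 0.176, 2.33 and 4.69 TPM. For TGFB2 and TGFB1, replicates 4 and 5 were the lowest libraries and did not overlap the other 4, whereas replicate 5 lay among the others for TGFB3. On rescaled TPM, 50.1% of all named nuclear genes likewise lay below the other 4 libraries in both. TGFB2 exceeded TGFB1 by 3.86-fold in the mean ratio (TGFB1 minus TGFB2 of -1.95 ± 0.46 (SD, n = 6) on the log2 scale), and TGFB3 by 6.64-fold, each in 6 of 6 libraries with an exact permutation p = 0.03125 (two-sided, adjusted p = 0.0395 over 24 pairs). TGFB1 was above TGFB3 in 5 of 6 libraries by 1.72-fold, which did not pass (exact permutation p = 0.0938, adjusted p = 0.102). That p and the others below are for the mean difference within a library of log2(rescaled TPM + 0.1), whose sign can be flipped in 64 ways, so that 0.03125 is the smallest p the 6 libraries allow, and every pair that passed had this p.

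The latent TGF-beta binding proteins hold secreted TGF-beta in the matrix until it is activated, though LTBP2 is known not to bind the latent ligand. LTBP4 stood at 56.2, 258 and 315 rescaled TPM and 2.57, 65.1 and 82.9 TPM, and LTBP1 at 60.9, 88.4 and 136 rescaled TPM and 2.48, 22.6 and 35.7 TPM. LTBP3 was at 4.78, 22.8 and 28.7 rescaled TPM and 0.203, 5.73 and 7.55 TPM. LTBP4 was nearly level with LTBP1 in replicates 4 and 5 and well above it in the other libraries.

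LTBP4 held 59.9% ± 11.4 (SD, n = 6) of the summed level of the 4 genes, or 66.5% without replicates 4 and 5, and LTBP1 held 32.4% ± 12.3 (SD, n = 6), or 24.7%. LTBP1 minus LTBP4 ranged from -1.79 to 0.11 on the log2 scale and did not pass (exact permutation p = 0.0938, adjusted p = 0.102), and the mean difference was -1.44 without replicates 4 and 5. LTBP3 kept a nearly fixed ratio to LTBP4, at -3.52 ± 0.13 (SD, n = 6) on the log2 scale, the smallest SD of the 24 pairs, and was lower in 6 of 6 libraries (exact test, adjusted p = 0.0395).

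LTBP2, at chr7:97744974-97852848 on the minus strand with 35 exons, was uneven between pigs. It lay at 1.79, 3.61 and 29.7 rescaled TPM and 0.0846, 0.925 and 7.17 TPM, with 29.7 rescaled TPM in replicate 2, 11.03 in replicate 6 and at most 4.02 in the other 4. Its mean of 8.80 rescaled TPM fell to 4.61 without replicate 2, and its coefficient of variation (CV, SD over mean) from 1.22 to 0.797. In replicate 2 the summed skeletal muscle markers were also highest, at 14.1 rescaled TPM against 2.00 to 4.46 elsewhere (4 of 8 markers found, none over 0.1 TPM in every library, and MYH1, MYH2, MYH7 and MYLPF without an ID). The smooth muscle and pericyte markers were highest there as well, at 1154 against 578 to 1114 (8 of 8 found). So were the endothelial markers, at 1445 against 658 to 1233 (6 of 8 found), and the lymphoid markers, at 149 against 56.1 to 103 (7 of 8 found). The adipocyte, progenitor and stromal, macrophage and epithelial sums were not highest there. The part of any of these markers in the LTBP2 level was not tested.

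**Figure D2:**
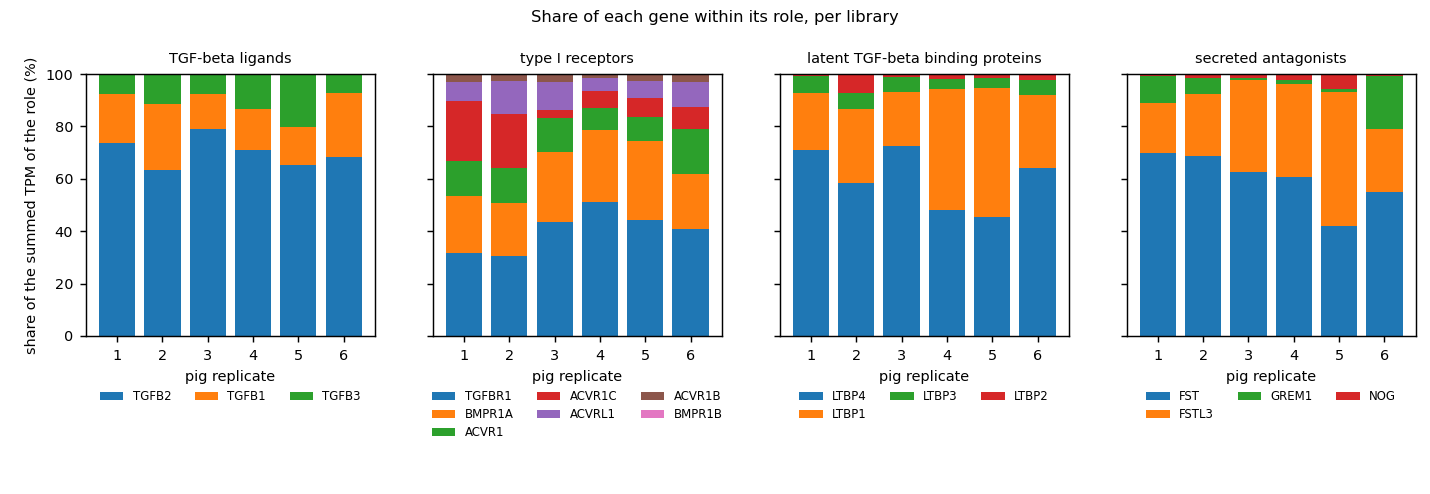
Share (%) of the summed TPM of a role held by each of its genes in each pig library, for the TGF-beta ligands, the type I receptors, the latent TGF-beta binding proteins and the secreted antagonists. TGFB2 holds 63.5% to 79.0% of its role in all libraries, while LTBP4 falls from 72.4% in replicate 3 to 45.5% in replicate 5 and ACVR1C varies from 3.18% to 23.1%.

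The BMP ligands were lower together than the TGF-beta ligands within every library, with a summed level of 14.8 to 40.7 rescaled TPM against 39.0 to 169. BMP4, known for driving progenitors towards the adipocyte lineage, stood at 4.56, 10.4 and 19.5 rescaled TPM and 0.213, 2.63 and 4.87 TPM. BMP6, known from iron control in the liver, stood at 4.06, 8.03 and 10.8 rescaled TPM and 0.192, 2.05 and 2.67 TPM. BMP2, a bone-forming ligand, stood at 3.77, 5.17 and 7.27 rescaled TPM and 0.126, 1.36 and 1.75 TPM. BMP4 and BMP6 could not be ordered, since BMP4 was higher in 5 of 6 libraries by a mean of 1.30-fold (exact permutation p = 0.156, adjusted p = 0.156). That log2 difference was 0.38 ± 0.53 (SD, n = 6), and it lay between 0.24 and 0.52 when 1 library was left out, the lowest being without replicate 1 and the highest without replicate 2. BMP2 was below BMP4 in 6 of 6 libraries by 1.90-fold (exact test, adjusted p = 0.0395).

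The other BMP ligands were low. BMP5 was at 1.95, 2.66 and 5.79 rescaled TPM and 0.0706, 0.678 and 1.40 TPM, BMP10, best known from the heart, at 0.274, 1.38 and 2.34 rescaled TPM and 0.00914, 0.361 and 0.564 TPM, and both passed 0.1 TPM in 4 libraries. BMP7, known for promoting brown fat, was at 0, 0.567 and 1.55 rescaled TPM and 0, 0.118 and 0.408 TPM, with its highest value in replicate 6 and a value of 0 in replicate 5. BMP3, known for opposing BMP signals in bone, was at 0.203, 0.541 and 0.881 rescaled TPM and 0.00677, 0.138 and 0.212 TPM. BMP6 was above BMP7 in 6 of 6 libraries (exact test, adjusted p = 0.0395), by a mean of 3.67 on the log2 scale with 0.1 added and 2.38 with 1 added, and no fold is given since BMP7 was listed at 0 in replicate 5. BMP1, which shares the name but is a protease that trims procollagen, was more abundant than any BMP ligand, at 23.6, 48.7 and 69.6 rescaled TPM and 0.787, 12.3 and 17.4 TPM.

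Among the GDF ligands, GDF11 stood highest on average. Its level was 6.20, 16.2 and 24.1 rescaled TPM and 0.207, 2.89 and 5.81 TPM, and it held 54.8% ± 13.3 (SD, n = 6) of the summed level of the role. GDF9, best known as an oocyte factor, followed at 3.57, 7.58 and 8.12 rescaled TPM and 0.119, 1.93 and 2.09 TPM and was above GDF11 in 1 of 6 libraries, replicate 6. GDF15, a hormone released by stressed cells, was at 0.363, 3.07 and 6.04 rescaled TPM and 0.0172, 0.8005 and 1.46 TPM. It was lowest in replicates 4 and 5, as were 50.1% of all named nuclear genes on rescaled TPM.

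GDF10 was at 0.293, 1.17 and 3.15 rescaled TPM and 0.00980, 0.269 and 0.787 TPM, and was 1 of 4 members with a CV over 0.7. GDF5, a joint-forming ligand, was at 0.131, 0.785 and 0.964 rescaled TPM and 0.00620, 0.206 and 0.233 TPM. MSTN, the close relative of GDF11 that limits muscle mass, was listed at 0 in 5 libraries and reached 0.00214 TPM in replicate 4. GDF11 was above MSTN in all 6 libraries, which the choice of this pair fixed, since a pair needed only 1 gene over 0.1 TPM in every library and MSTN passed 0.1 TPM in none.

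Activins are dimers of inhibin beta subunits. INHBB, which encodes the beta B subunit and is known to be made by adipocytes, stood at 3.56, 5.65 and 16.1 rescaled TPM and 0.128, 0.946 and 3.88 TPM, with its highest value in replicate 2. INHBA, the beta A subunit, stood at 1.18, 2.81 and 5.22 rescaled TPM and 0.0393, 0.719 and 1.26 TPM. INHBB exceeded INHBA by 2.48-fold in 6 of 6 libraries (exact test, adjusted p = 0.0395) and held 68.4% ± 12.4 (SD, n = 6) of the summed level of the subunits. The alpha subunit INHA, which turns an activin into an inhibin, was not detected.

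Most receptors lay above most ligands in level. Of the type I receptors, TGFBR1, the receptor of TGF-beta, was highest at 110.3, 129 and 177 rescaled TPM and 5.60, 28.5 and 39.9 TPM. BMPR1A, a main BMP receptor, stood at 75.4, 80.5 and 95.2 rescaled TPM and 3.18, 19.1 and 22.1 TPM. Both varied little on the rescaled scale, with a CV of 0.182 for TGFBR1 and 0.0851 for BMPR1A. BMPR1B, its paralogue, was at 0.139, 0.443 and 1.44 rescaled TPM and 0.00464, 0.109 and 0.376 TPM. BMPR1A was above BMPR1B in 6 of 6 libraries (exact test, adjusted p = 0.0395), by a mean of 7.20 on the log2 scale with 0.1 added and 5.76 with 1 added, so that the size of the difference depends on that choice.

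ACVR1, another BMP receptor, was at 24.6, 43.2 and 64.7 rescaled TPM and 0.965, 11.02 and 17.05 TPM, and ACVRL1, the endothelial receptor ALK1, at 16.9, 29.2 and 50.5 rescaled TPM and 0.564, 7.49 and 12.2 TPM. ACVR1 lay above ACVRL1 in 6 of 6 libraries by 1.46-fold, though by only 0.04 on the log2 scale in the closest, replicate 2 (exact test, adjusted p = 0.0395). ACVR1B, the main activin receptor, was at 5.59, 8.73 and 10.1 rescaled TPM and 0.187, 2.19 and 2.57 TPM.

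ACVR1C, or ALK7, an activin and GDF receptor known from mature adipocytes, had the largest CV of the type I receptors with a mean of at least 1 rescaled TPM. The gene lies at chr15:64452632-64529329 on the minus strand and has 9 exons. Its level was 9.97, 26.7 and 83.2 rescaled TPM and 0.735, 5.44 and 20.1 TPM. Replicates 1 and 2 stood at 80.5 and 83.2 rescaled TPM and the other 4 between 9.97 and 31.4, so that the values fell apart with no pig in between. The lowest value was in replicate 3 and not in replicate 4 or 5. Its CV was 0.790, and 0.7097 without replicates 4 and 5. Even so it exceeded ACVR1B in 6 of 6 libraries, by 3.78-fold in the mean ratio (exact test, adjusted p = 0.0395). The adipocyte markers summed to 21272 and 27024 rescaled TPM in replicates 1 and 2 and to 20205 to 36821 in the other 4, and their part in the ACVR1C level was not tested.

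TGFBR2 kept a nearly fixed share of the type II receptors, while the shares of BMPR2 (32.4% to 39.8%) and ACVR2A (8.92% to 16.4%) moved more. The small share of ACVR2B (1.23% to 3.22%) moved more only relative to its mean. TGFBR2, the type II receptor of TGF-beta, stood at 117, 205 and 229 rescaled TPM and 4.01, 50.3 and 60.3 TPM, and BMPR2 at 79.7, 143 and 168 rescaled TPM and 2.66, 36.7 and 44.0 TPM. ACVR2A, an activin receptor, was at 33.3, 44.6 and 51.8 rescaled TPM and 1.35, 11.2 and 12.8 TPM, and its paralogue ACVR2B at 4.04, 6.05 and 14.0 rescaled TPM and 0.191, 1.45 and 3.69 TPM. TGFBR2 held 49.7% ± 1.72 (SD, n = 6) of their sum, with a range of 47.5% to 52.6%, replicates 4 and 5 included.

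The order of the type II receptors was TGFBR2, BMPR2, ACVR2A and ACVR2B in every library. BMPR2 exceeded ACVR2A by 2.90-fold, and ACVR2A exceeded ACVR2B by 6.14-fold, each in 6 of 6 libraries (exact test, adjusted p = 0.0395). TGFBR1 and TGFBR2, which form the TGF-beta receptor complex, were not ordered over the 6 libraries, TGFBR1 minus TGFBR2 being -0.38 ± 0.56 (SD, n = 6) on the log2 scale (exact permutation p = 0.125, adjusted p = 0.130). TGFBR2 was higher in replicates 1, 2, 3 and 6, with a mean difference of -0.71 there, while TGFBR1 was higher in replicate 4 and level with it in replicate 5, at 118 against 117 rescaled TPM. The co-receptor TGFBR3, or betaglycan, which presents TGF-beta to the signalling receptors, was at 38.7, 117 and 172 rescaled TPM and 1.83, 28.8 and 45.2 TPM. It lay below TGFBR2 in 6 of 6 libraries by 1.82-fold (exact test, adjusted p = 0.0395).

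SMAD4, the shared partner of all receptor-regulated SMADs, was the most abundant SMAD, at 163, 226 and 267 rescaled TPM and 5.89, 58.1 and 64.3 TPM. On the TGF-beta and activin arm, SMAD2 stood at 92.4, 107 and 148 rescaled TPM and 3.51, 25.8 and 35.7 TPM, and SMAD3 at 33.9, 50.04 and 69.8 rescaled TPM and 1.61, 11.5 and 18.4 TPM. SMAD2 was above SMAD3 in 6 of 6 libraries by 2.27-fold (exact test, adjusted p = 0.0395).

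On the BMP arm, SMAD5 stood at 95.2, 113 and 118 rescaled TPM and 3.84, 27.9 and 31.2 TPM, SMAD1 at 24.9, 44.3 and 59.0 rescaled TPM and 1.17, 11.14 and 15.6 TPM, and SMAD9 at 4.56, 13.4 and 17.5 rescaled TPM and 0.152, 3.30 and 4.59 TPM. SMAD5 was the steadiest of the 43 members on the rescaled scale, with a CV of 0.0767. It exceeded SMAD1 by 2.65-fold and SMAD9 by 10.5-fold, each in 6 of 6 libraries (exact test, adjusted p = 0.0395). SMAD5 and SMAD2, of different arms, were not ordered, since SMAD5 was higher in 4 of 6 libraries. The shares of the receptor-regulated SMADs were 34.2% ± 2.85 (SD, n = 6) for SMAD5, 34.2% ± 4.00 (SD, n = 6) for SMAD2 and 3.53% ± 1.53 (SD, n = 6) for SMAD9.

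SMAD6 and SMAD7 inhibit signalling, SMAD6 mainly on the BMP arm, and both are themselves induced by it. SMAD6 was at 11.13, 14.4 and 25.3 rescaled TPM and 0.510, 3.25 and 6.10 TPM, and SMAD7, with the palindrome in its promoter shown above, at 5.33, 5.72 and 9.41 rescaled TPM and 0.199, 1.39 and 2.46 TPM. Both were highest in replicates 2 and 3. SMAD6 exceeded SMAD7 by 2.39-fold in 6 of 6 libraries (exact test, adjusted p = 0.0395), and its share of the pair was 70.6% ± 2.16 (SD, n = 6).

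Follistatin (FST) binds activins and related ligands outside the cell, and was the main secreted antagonist on average. It stood at 29.1, 66.1 and 109 rescaled TPM and 1.38, 16.8 and 27.2 TPM and held 59.8% ± 10.3 (SD, n = 6) of the summed level of the antagonists. FSTL3, a related activin binder, was at 25.8, 30.7 and 36.2 rescaled TPM and 0.976, 7.10 and 9.53 TPM. FST was above FSTL3 in 5 of 6 libraries, all but replicate 5, by 1.98-fold, which did not pass (exact permutation p = 0.0625, adjusted p = 0.0750).

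GREM1, a BMP antagonist made by stromal cells, was, with LTBP2, the most uneven of the 43 members, with a CV of 1.23 against 1.22 for LTBP2. The gene lies at chr1:136617041-136629293 on the plus strand and has 3 exons. Its level was 0.675, 4.81 and 30.1 rescaled TPM and 0.0390, 1.08 and 7.92 TPM. Replicates 6, 1 and 2 held 30.1, 15.9 and 8.23 rescaled TPM, and replicates 3, 4 and 5 held at most 1.40. Replicate 3 thus lay with replicates 4 and 5, below each of the other 3 pigs. The mean of 9.52 rescaled TPM fell to 5.41 without replicate 6, and the CV was 0.914 without replicates 4 and 5. The summed markers of adipose progenitor and stromal cells were 17734, 28481 and 15005 rescaled TPM in replicates 6, 1 and 2, and 9679 to 16901 in the other 3 (9 of 10 found, all over 0.1 TPM in every library), and their part in the GREM1 level was not tested.

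NOG, or noggin, a BMP antagonist, was at 1.04, 1.55 and 3.84 rescaled TPM and 0.0603, 0.298 and 0.439 TPM, and was higher in replicate 5 than in any other library on the rescaled scale only. FSTL1, a secreted glycoprotein of the follistatin family, was the most abundant member, at 458, 826 and 931 rescaled TPM and 15.3, 212 and 232 TPM, and exceeded FSTL3 by 24.5-fold in 6 of 6 libraries (exact test, adjusted p = 0.0395).

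Of 27 pairs listed, 24 could be tested, and 19 passed at an adjusted p of 0.0395 by the exact test with Benjamini-Hochberg adjustment. Under Holm's adjustment 0 passed, since 6 libraries then allow no adjusted p under 0.75. The 19 include GDF11 against MSTN, which was bound to pass. Some signs were also fixed for BMP6 against BMP7, INHBB against INHBA, BMPR1A against BMPR1B, and LTBP1 against LTBP2. There only the higher gene passed 0.1 TPM in all 6 libraries, while BMP7 and INHBA passed it in 4, BMPR1B in 3 and LTBP2 in 5. Where the lower gene was under 0.1 TPM, the choice of the pair fixed which gene was higher, so these p-values are less telling. In each of the 19 the same gene was higher in all 6 libraries, replicates 4 and 5 included, as a pass requires with 6 libraries. The pair of LTBP1 and LTBP2 was among them, with LTBP1 higher by 16.6-fold and by 1.95 on the log2 scale in replicate 2, where LTBP2 was highest. A ratio within a library depends on its scale only through the 0.1 added.

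**Figure D3:**
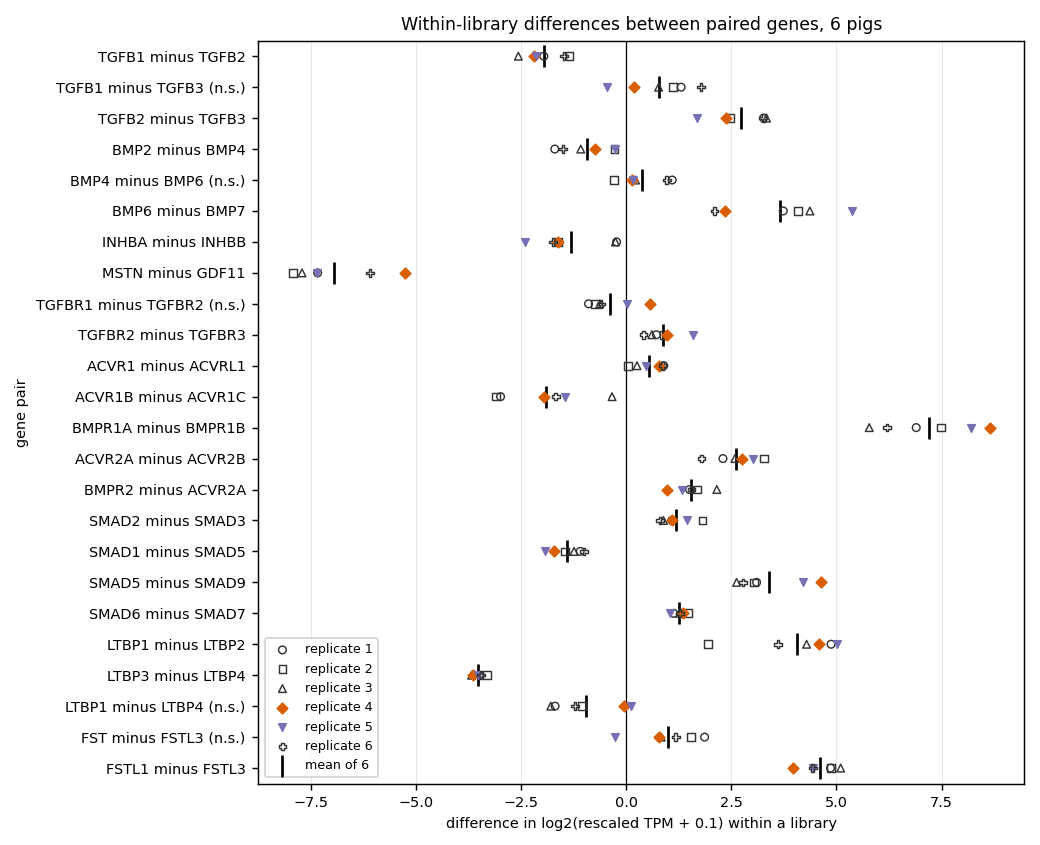
Difference in log2(rescaled TPM + 0.1) within each of the 6 pig libraries for the 24 gene pairs tested, with black bars for the mean and filled symbols for replicates 4 and 5. All 6 points lie on one side of 0 in 19 pairs, and the 5 pairs marked n.s. did not pass; TGFBR1 minus TGFBR2 runs from -0.90 to 0.56.

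The spread between pigs was then set against that of genes at large. The median CV of rescaled TPM was 0.426 over the 43 members and 0.327 over 12130 named nuclear genes with the same filter, and it was 0.207 and 0.188 without replicates 4 and 5. As deposited, the medians were 0.733 and 0.699. A CV over 0.7 was seen in 4 members, ACVR1C, GDF10, GREM1 and LTBP2 (background 5.67% of genes), and without replicates 4 and 5 their CVs were 0.7097, 0.570, 0.914 and 1.03 in that order. A CV under 0.2 was seen in 7 members, ACVR2A, BMPR1A, FSTL3, SMAD2, SMAD4, SMAD5 and TGFBR1, which are receptors and SMADs apart from FSTL3 (background 22.8%).

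**Figure D4:**
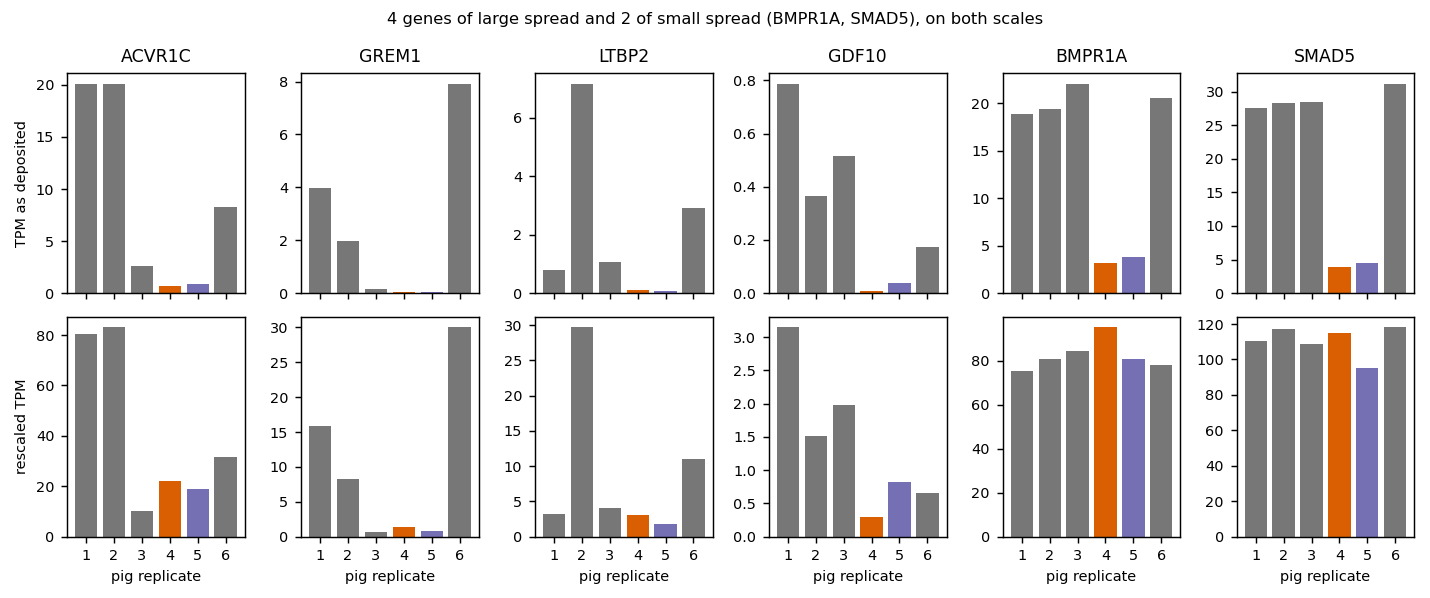
TPM as deposited (upper row) and rescaled TPM (lower row) in each pig library for the members of CV over 0.7 and for BMPR1A and SMAD5, with colours marking replicates 4 and 5. As deposited, replicates 4 and 5 are lowest for all 6 genes, while after rescaling BMPR1A spans 75.4 to 95.2 and SMAD5 95.2 to 118 rescaled TPM and the uneven levels of ACVR1C, GREM1 and LTBP2 remain.

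Replicates 4 and 5 were compared with the other libraries as a description, since they are not a group of the study. As deposited, all 43 members were below the other 4 libraries in both, as were 98.2% of all named nuclear genes. On rescaled TPM, both lay below the other 4 for 25 of 43 members (background 50.1% of genes) and above them for 0 (background 10.4%). Of the 28 members with a mean of at least 10 rescaled TPM, 16 were below (background 48.6%). The median log2 ratio of the 2 libraries to the other 4 was -0.55 over all named nuclear genes and -0.87 over members. The direction for single members depended on the scaling. When each library was centred on its median gene, 13 members were below and 7 above (background 25.4% and 31.2%), and after quantile normalization 13 were below and 4 above (background 25.8% and 27.4%). The members' median was lower than that of all genes by 0.31, 0.30 and 0.31 on the log2 scale under the 3 scalings. Rescaling and median-centring each multiply a whole library by 1 factor, so the first 2 of these values could hardly differ.

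The members below the other 4 libraries under each of the 3 scalings were 11 of 43, beside 22.1% of all named nuclear genes: the ligands TGFB1, TGFB2, BMP10 and GDF15, the receptors ACVR1, BMPR2, TGFBR2 and TGFBR3, the latent TGF-beta binding proteins LTBP3 and LTBP4, and SMAD9. TGFB1 had a mean of 6.15 rescaled TPM in replicates 4 and 5 against 28.3 in the other 4 libraries, and LTBP4 66.6 against 286. Of the 43 members, 4 (BMPR1A, FSTL3, NOG and SMAD5) lay above the other 4 libraries under both median-centring and quantile normalization, but not on rescaled TPM. Taken alone, these 2 scalings put 31.2% and 27.4% of all named nuclear genes above, and the share above under both was not counted. BMPR1A had a mean of 87.9 rescaled TPM in replicates 4 and 5 against 79.5, and SMAD5 105 against 114.

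Marker lists of cell types other than adipocytes were also read in these libraries. The macrophage markers (8 of 8 found) summed to 523 and 343 against 644 to 836 rescaled TPM in replicates 4 and 5 and in the others, and the lymphoid markers (7 of 8 found) to 68.5 and 56.1 against 76.5 to 149. The smooth muscle and pericyte markers summed to 578 and 676 against 747 to 1154, while the epithelial markers (4 of 6 found) were at 25.2 and 13.0 against 8.50 to 13.7. The epithelial sum of replicate 5 lay within the range of the others. The progenitor and stromal markers (9 of 10 found) summed to 9679 and 16901 against 15005 to 28481, replicate 5 again within that range. Of these 9 single markers, 6 were below the other 4 libraries in both replicates and 0 above (background 50.1% and 10.4% of genes). For the macrophage, lymphoid, smooth muscle and pericyte, and epithelial lists, 5, 2, 4 and 1 markers were below, and 1 epithelial marker was above. The part of these markers in the levels of the members was not tested.

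The ratio also moved with the base composition of the transcript, for genes at large as for members. All named nuclear genes had a median log2 ratio of -0.37 under 45% G and C, -0.59 from 45% to 55% and -0.74 over 55%. The members had -0.49, -0.89 and -0.998 in the same bins, which held 11, 14 and 18 of them, and 5, 9 and 11 of these were below the other 4 libraries. Among all named nuclear genes, 41.4%, 52.0% and 56.9% were below in these bins. The part of base composition in the members' shift was not tested.

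**Figure D5:**
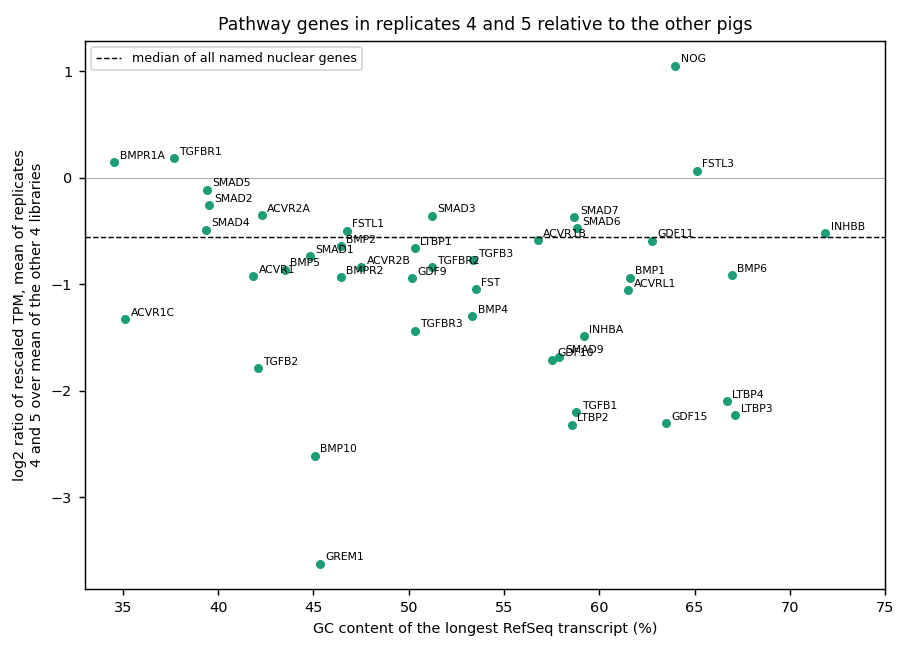
Log2 ratio of rescaled TPM (mean of replicates 4 and 5 over the mean of the other 4 pig libraries) against the GC content (%) of the longest RefSeq transcript, for the 43 members. The dashed line marks the median of all named nuclear genes at -0.55, and 30 of 43 members lie below it, GREM1 farthest.

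Other genes of the pathway were read from 5 lists that the choice by symbol left out. Of 15 intracellular regulators, 14 were found and all 14 were over 0.1 TPM in every library. PPM1A, a phosphatase of SMADs, was highest at 174, 214 and 248 rescaled TPM, followed by STRAP, which binds receptors and SMADs, at 164, 182 and 191, and by ZFYVE16, an endosomal SMAD partner, at 96.4, 116 and 137. These 3 genes varied little, with CVs of 0.139, 0.0569 and 0.113. Of the 14, 8 were below the other 4 libraries in both replicates 4 and 5 on rescaled TPM and 0 above (background 50.1% and 10.4% of genes).

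Among 23 other extracellular regulators, 22 were found, and 14 were over 0.1 TPM in every library. DCN, or decorin, a matrix proteoglycan that binds TGF-beta, was at 4365, 5597 and 8685 rescaled TPM, THBS1, an activator of latent TGF-beta, at 276, 589 and 788, and FBN1, the fibrillin that anchors its latent form, at 238, 296 and 357. BGN, or biglycan, was the 1 gene of this list with a mean of at least 1 rescaled TPM and a CV over 0.7. It stood at 6.10 and 9.24 rescaled TPM in replicates 4 and 5 and between 128 and 203 in the others. The list as a whole was not low there. Of its 15 genes with a mean of at least 1 rescaled TPM, 5 were below the other 4 libraries in both and 1 above (background 50.1% and 10.4% of genes). The sclerostin gene SOST was listed at 0.

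Of 10 symbols listed for other receptors and co-receptors, among them both CRIPTO and its older name TDGF1, 7 were found. All 7 were below the other 4 libraries in replicates 4 and 5 on rescaled TPM, where 50.1% of all named nuclear genes were. RGMA, a BMP co-receptor, was at 19.1, 67.1 and 149 rescaled TPM, ENG, or endoglin, the endothelial partner of ACVRL1, at 6.51, 42.8 and 82.3, and NEO1, the receptor of the RGM proteins, at 10.7, 28.8 and 40.0. The CV was over 0.7 for RGMA and ENG. The endothelial markers were also low in replicates 4 and 5, with sums of 658 and 798 rescaled TPM against 1118 to 1445 in the others (6 of 8 found, VWF and CLDN5 without an ID), and their part in the level of ENG and ACVRL1 was not tested.

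Target genes of the pathway were present in all pigs. Of 14 symbols listed, among them both CCN2 and its older name CTGF, 12 were found and 11 were over 0.1 TPM in every library. FN1, or fibronectin, was at 278, 730.2 and 1261 rescaled TPM, TGFBI, a matrix protein induced by TGF-beta, at 93.3, 232 and 407, and ID3, a target of BMP signals, at 107, 166 and 331. CCN2, a fibrosis-related target, was uneven, at 38.3, 59.3 and 197 rescaled TPM with its highest value in replicate 2, the library that was also highest for LTBP2. Of the 11 with a mean of at least 1 rescaled TPM, 6 were below the other 4 libraries in replicates 4 and 5 and none above, a share near that of all named nuclear genes (50.1% below). The summed level was 891 and 925 rescaled TPM there and 1602 to 2369.7 in the other libraries.

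The other ligands of the family were close to absent from the table. NODAL was listed at 0, AMH reached 0.0804 rescaled TPM in replicate 3, and LEFTY2 reached 0.859 in replicate 1.

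The RefSeq gene of 19 members overlapped another gene, among them TGFB1, TGFB3, SMAD1, SMAD3, SMAD4, BMPR1A, ACVR1C and the 4 LTBP genes. The libraries were stranded, but the sources used here do not say whether the quantification used the strand, so these levels are less certain.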

How the data were processed

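Total RNA of the upper layer of backfat was depleted of ribosomal RNA and made into stranded libraries, which were sequenced on an Illumina platform. The authors quantified transcripts with Kallisto (0.43.0, per the submitters' processing notes) on Sscrofa11.1 and deposited TPM per gene, 1 table per species. The TPM of a library sum to 1000000 and keep no read counts, so depth is unknown and precision comes only from the spread between the 6 libraries. The study names a release of the pig annotation for its reference genes, without tying this table to it.

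A name table paired IDs with symbols. The 57 members, the gene lists and the pairs were chosen with earlier results of these data known. TPM were read as deposited and after rescaling to 1000000 over 14844 named nuclear genes. Detection was over 0.1 TPM, and CVs and the comparison of replicates 4 and 5 used genes with a mean of at least 1 rescaled TPM. The mean difference within a library of log2(rescaled TPM + 0.1) was tested for 24 pairs of members with both genes found and at least 1 over 0.1 TPM in all libraries, by an exact two-sided sign-flip permutation test with Benjamini-Hochberg adjustment (threshold 0.05). The test was checked on simulated data. Every member over 0.1 TPM in at least 1 library is named, apart from 1 that is not reported here and was left out of shares, and of each pathway list the 3 genes of highest mean and any of CV over 0.7.

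Sequences, positions and GC content came from the RefSeq annotation of Sscrofa11.1, in which all 57 members matched by symbol. Median-centring, quantile normalization, other filters and leaving out libraries were alternatives. Python 3.11.15, numpy 2.4.6 and pandas 2.3.3 were used. The rat table was not used.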

Additional observations from a re-analysis of the deposited data

Results flagged for a closer look

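In 5 of 111 sets of 6 values (the named members on both scales and the named genes of the pathway lists on rescaled TPM), 1 library lay far from the other 5 by Dixon's test, and chance alone flags about 1 in 20 such sets. FSTL1 was lowest in replicate 4, at 458 rescaled TPM. LTBP2 was highest in replicate 2, at 29.7 rescaled TPM. NOG was highest in replicate 5, at 3.84 rescaled TPM. BMP7 reached 0.408 TPM in replicate 6, and LEFTY2 reached 0.859 rescaled TPM in replicate 1.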

How the results depend on the processing

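At over 1 TPM, 15 members were detected in all 6 pigs, against 35 at over 0.1 TPM and 46 at over 0.1 rescaled TPM. The median CV of members, 0.426 on rescaled TPM, was 0.733 as deposited, 0.318 median-centred, 0.305 after quantile normalization, 0.750 when mitochondrially encoded and ribosomal protein genes were removed, 0.490 with no filter on low values, 0.347 over genes with a mean of at least 10, 0.207 without replicates 4 and 5, and 0.337 to 0.445 with 1 library left out. Under Holm's adjustment 0 of 24 pairs passed, since the smallest adjusted p that 6 libraries allow is then 0.75, while 19 of 24 passed at an unadjusted p under 0.05. All 24 pairs kept their side of the threshold with a pseudocount of 1 or on TPM as deposited, which could not come out otherwise. These settings treat both genes of a library alike, so the higher gene stays the same, and a pair passes only when all 6 libraries share a direction. The size of a difference could change, and these settings moved BMP6 against BMP7 to 2.38 and 2.53, and BMPR1A against BMPR1B to 5.76 and 5.77, on the log2 scale. With any 1 library left out, the mean difference of the 19 pairs that passed could not change direction, since all 6 libraries shared it. The 5 pairs that did not pass could have changed, and each kept its direction. No pair could then pass, since the smallest p that the exact permutation test allows with 5 libraries is 0.0625. Both replicates 4 and 5 lay below the other libraries for 25 of 43 members on rescaled TPM (50.1% of all named nuclear genes), for 43 of 43 as deposited (98.2%) and for 16 of the 28 members with a mean of at least 10 (48.6%), where fewer members were counted. The median of the members' mean levels was 4.84 TPM as deposited and 20.9 rescaled TPM. The largest share of each role tested moved by less than the spread between libraries when any 1 library, or both replicates 4 and 5, was left out. With 6 libraries a mean share can only move by less than the SD in these settings, so this does not show that the shares are stable. No paired analysis was possible because the pig and rat libraries, which share replicate numbers, come from unrelated animals and were not compared. Depth is unknown, and p-values measure only the spread between these 6 pigs.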
